A study of Sus scrofa with 72 samples.

Results

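DNA replication and nucleotide supply genes were followed in pig synovial mesenchymal stem cells (SMSCs) cultured with or without adipogenic induction. The set held 41 genes, chosen by their role: origin licensing, the MCM helicase and its activators, DNA polymerases and primase, the sliding clamp and its loader, the single-strand binding protein RPA, Okazaki fragment processing and deoxynucleotide synthesis. A gene was taken as measured when a probe set of the Snowball pig array carried its platform gene symbol, which held for 39 of the 41 genes and 68 of the 47845 probe sets. Of these genes 25 had 1 probe set, and the other 14 are given by the probe set with the highest mean. ORC1 and POLA2 had no probe set under those symbols. For 34 of the 39 genes this probe set was among the 18335 that passed the filter on low or flat signals and were tested.

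Cells came from 2 synovial tissues, fibrous synovium (FS) of the joint capsule and adipose synovium of the infrapatellar fat pad (FP), of male piglets 59 days old of the breeds Angeln Saddleback (AS) and German Landrace (DL). Cells of passage 3 from 3 pigs were pooled for each breed and tissue, which gave 4 pools, and each pool was grown in 2 independent cultures. Adipogenic induction medium (AIM), a commercial differentiation kit, was compared on days 1, 4, 7 and 14 with complete culture medium (CCM), a high-glucose medium with 10% serum, and CCM cells were also collected on day 0. This gave 72 arrays in 36 groups. No group carried a genetic change, and day 0 was sampled in CCM only. Because each breed and tissue was 1 pool, p-values measure the spread between cultures and arrays and not between pigs.

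Before a cell divides it copies its DNA once. In human cells and yeast, where most of these proteins were characterised, ORC, CDC6 and CDT1 load the MCM2 to MCM7 ring onto origins, MCM10, CDC45 and GINS turn it into a moving helicase, and polymerases alpha, delta and epsilon copy the strands while PCNA, loaded by the RFC complex, holds them on the template. Ribonucleotide reductase, thymidylate synthase and thymidine kinase supply the building blocks. Many of these genes are transcribed under E2F factors late in G1 and in S phase, so that their transcripts are used as a reading of proliferation. Fat cell precursors leave the cell cycle as they differentiate, and in some culture models they first pass through a few divisions after induction. In RNA from whole cultures, fewer replicating cells and less RNA of these genes per cell cannot be told apart.

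All values are log2 expression after robust multiarray averaging, and the median of an array lay between 3.95 and 4.12 over the 72 arrays. Of the 72 arrays, 4 were left out by the selection set for this report, so 68 were used. In these 4, genes such as those below lay nearer to another group than to the labelled one. In the array labelled DL FP day 0 replicate 2, MCM4 was 8.87, against 6.66 to 8.04 in the other 7 day 0 arrays and 8.61 to 8.93 in the 7 CCM arrays of day 1 that were used. The array labelled DL FS CCM day 1 replicate 2 had MCM4 at 7.16, inside the day 0 range. In the pair labelled AS FP day 7 replicate 2, TYMS was 9.40 in the array labelled AIM and 7.75 in the one labelled CCM, whereas the other 7 arrays ran from 7.27 to 8.09 in AIM and from 8.95 to 9.35 in CCM. Statements below that arrays did not overlap hold for the 68 arrays used. As labelled, the left-out arrays would overlap between media for MCM4 on day 1 and for TYMS on day 7, and for other genes too. In the array labelled DL FS CCM day 1 replicate 2, MCM10 was 5.51, RRM2 6.68 and RFC1 6.78, each within or below the AIM range of day 1. In the pair labelled AS FP day 7 replicate 2, RFC1 was 6.76 in the array labelled AIM and 8.35 in that labelled CCM. MCM10 would overlap on day 7 as well. Without these 4 arrays, 4 of the 36 groups rested on 1 array, which is taken to vary like the rest. The mesenchymal stromal markers CD44, ITGB1, THY1, ENG, COL1A1 and COL1A2 had a mean of 10.41 to 10.56 in the arrays of day 0, and all 7 fat cell markers, ADIPOQ and FABP4 among them, were higher in AIM than in CCM from day 4 (limma, adjusted p under 0.01). Endothelial markers had means of 3.38 to 4.48 in every state, and macrophage markers 3.00 to 3.81 except on day 14, where they reached 4.31 in AIM and 5.47 in 1 CCM array.

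Replication genes peaked in CCM on day 1. Of the 39 genes, 34 had their highest state mean there, against 19.9% of all tested probe sets, and the other 5 did so in AIM on day 4 (2), day 7 (2) or day 14 (1). None had its highest mean on day 0, in AIM on day 1 or in CCM after day 1. The lowest mean fell in AIM on day 4 for 12 genes (15.6% of all tested probe sets) and in CCM on day 4 for 10 (5.44%). The range of the state means had a median of 1.69 over the 34 tested genes and 0.86 over all tested probe sets.

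**Figure D1:**
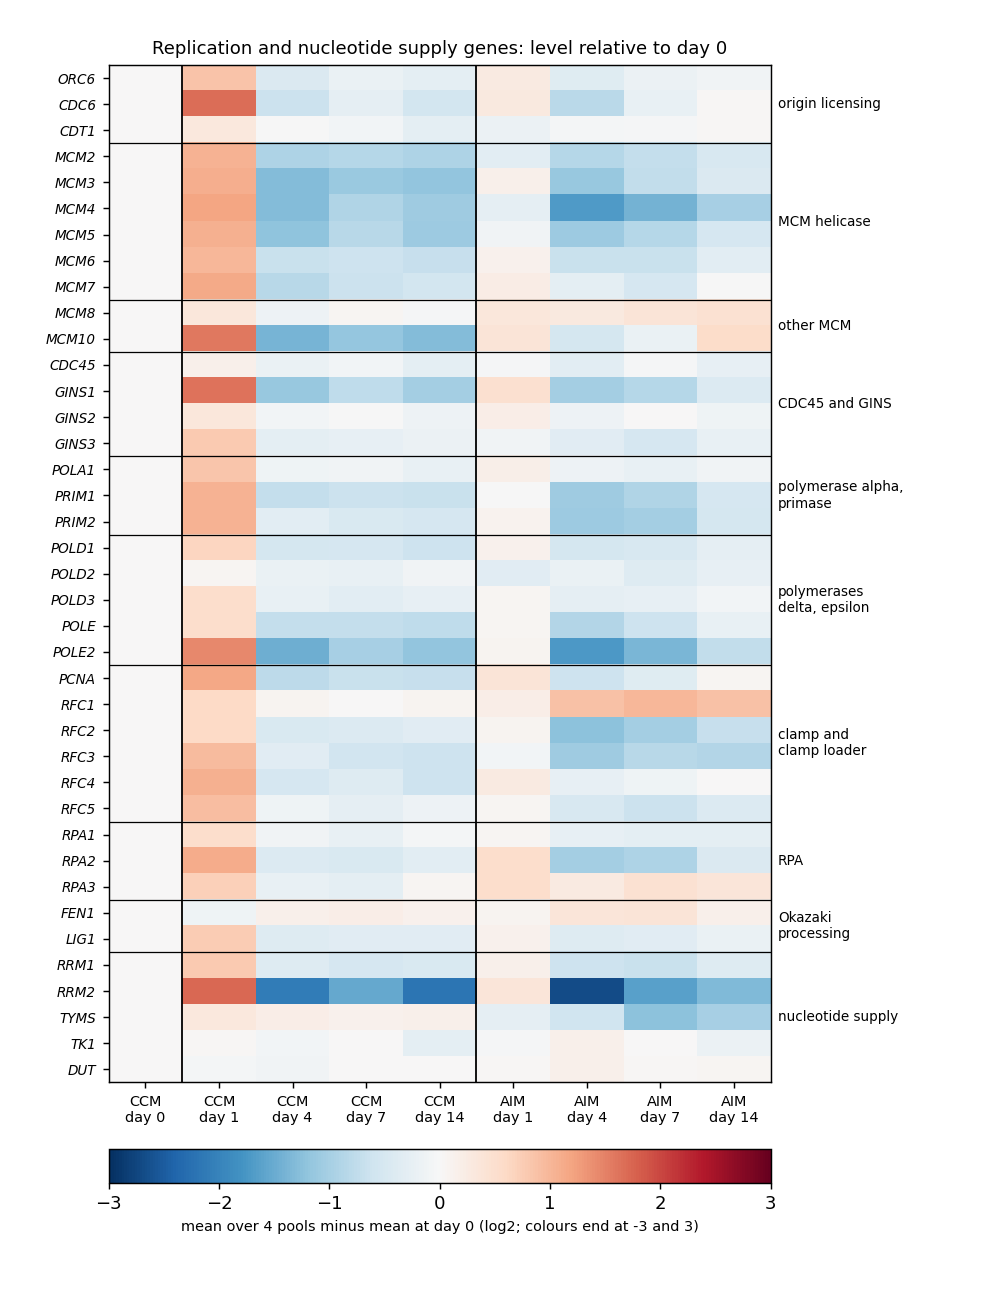
Mean log2 expression of the 39 measured genes in each medium and day, averaged over the 4 pools, minus the mean on day 0; rows are genes ordered by role and columns are states. The column of CCM day 1 is red for most genes, and the columns of days 4 to 14 are mostly blue in both media. RFC1, TYMS, FEN1, MCM8, TK1 and DUT are among the rows that depart from this pattern.

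Within CCM, 30 of the 34 tested genes rose from day 0 to day 1 and none fell, with a median of 0.95 against -0.01 over all tested probe sets, of which 16.1% rose. The median over the 39 genes in an array was 5.86 to 6.32 on day 0 and 6.78 to 7.05 in CCM on day 1, so that the arrays did not overlap. RRM2, the small subunit of ribonucleotide reductase, rose by 1.72, CDC6 by 1.68, GINS1 by 1.63 and MCM10 by 1.58. The 4 genes that did not pass were CDT1, GINS2, MCM8 and TYMS, with differences of 0.32 to 0.34.

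In AIM the same step was small. Only 5 of the 34 genes were higher on day 1 than on day 0, RPA2 and RPA3 (both 0.52), GINS1 (0.47), MCM10 (0.40) and PCNA (0.39), with a median of 0.13 over the 34, and 16.8% of all tested probe sets rose. All 5 rose in CCM too. This count was the least stable in the set, 8 after centring the arrays on their medians, 10 after quantile normalization and 1 to 7 with a culture line left out. It was 1 without AS FS replicate 1 or DL FS replicate 2, 2 without AS FS replicate 2, and 3 without AS FP replicate 2 or DL FP replicate 2.

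The comparison of AIM with CCM on day 1 asked what the first day of induction changed. Of the 34 tested genes, 31 were lower in AIM and none was higher (limma, Benjamini-Hochberg adjusted p under 0.01), whereas among all tested probe sets 17.6% were lower and 10.4% higher. The median difference was -0.79 over the 34 genes and -0.03 over all tested probe sets. All 31 were lower in each of the 4 pools. Among the arrays used, every AIM array lay below every CCM array in 25 of the 34 genes and in 8.55% of all tested probe sets. With a culture line left out 28 to 31 genes were lower, and with all 72 arrays as labelled 27. The 7 dividing cell markers, MKI67 and TOP2A among them, were all lower in AIM too, with array means of 8.00 to 8.49 in CCM and 6.92 to 7.62 in AIM, and their part in the result was not tested. The comparisons between days use the same arrays.

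Among the licensing factors, CDC6, which helps to load the helicase, had the largest day 1 difference. CDC6 was 4.62 at the lowest, 5.11 at the median and 5.54 at the highest in the 7 CCM arrays, and 3.27, 3.71 and 4.62 in the 8 AIM arrays. The AIM arrays stayed below those in CCM, and the difference was -1.40 (SE 0.23, limma adjusted p = 6.9e-06). Its mean in every other state was 2.68 to 3.77, below the array medians of 3.95 to 4.12 to which the filter refers. All 7 CCM arrays of day 1 lay above them. CDC6 thus passed the filter largely through that state, and its differences reach values near the floor. ORC6, a subunit of the origin recognition complex, differed by -0.58 and CDT1, the loading partner of CDC6, by -0.48.

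All 6 subunits of the MCM2 to MCM7 ring, the core of the replicative helicase, were lower in AIM on day 1. MCM4 ran from 8.61 over a median of 8.80 to 8.93 in CCM and from 6.78 over 7.30 to 7.74 in AIM. The arrays of the media did not overlap, and the difference was -1.44 (SE 0.12, limma adjusted p = 6.6e-12), or 2.71-fold lower. MCM2 differed by -1.36, MCM5 by -1.18, MCM7 by -0.93, MCM3 by -0.92 and MCM6 by -0.86. In none of the 6 did the arrays of the media overlap.

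Outside the ring, MCM10, which acts when the helicase starts to move, was 7.07 to 7.67 in CCM (median 7.38) and 5.85 to 6.70 in AIM (median 6.20). Its arrays did not overlap between media, and the difference was -1.18 (SE 0.12, limma adjusted p = 4.9e-10). MCM8, which in human cells works in homologous recombination, did not pass, at 0.01 (SE 0.18). A second tested MCM8 probe set did not pass on day 1 either, at -0.11. On day 14 that probe set was higher in AIM by 0.51 (limma adjusted p = 1.4e-05), whereas the first, at 0.495, did not pass (0.014). GINS1, a subunit of the tetramer that activates the helicase, was 6.95 to 7.19 in CCM (median 6.99) and 5.49 to 6.44 in AIM (median 5.87). Its difference was -1.16 (SE 0.15, limma adjusted p = 9.4e-08), GINS3 differed by -0.88, and GINS2 did not pass at -0.14 (SE 0.12).

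PRIM1, the catalytic primase subunit that lays down RNA primers, was 7.43 to 7.78 in CCM (median 7.57) and 6.21 to 6.83 in AIM (median 6.54), a difference of -1.07 (SE 0.13, limma adjusted p = 1.1e-08). PRIM2, its regulatory partner, was lower by 0.92 and POLA1, the catalytic subunit of polymerase alpha, by 0.65. POLE2, a subunit of the leading-strand polymerase epsilon, was 6.34 to 6.73 in CCM (median 6.52) and 4.25 to 5.59 in AIM (median 5.30). The difference of POLE2 was -1.36 (SE 0.17, limma adjusted p = 4.4e-08). The catalytic subunits POLE and POLD1 differed less, by -0.46 and -0.53, with overlapping arrays, and POLD3 by -0.48.

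RFC3, a small subunit of the clamp loader, was 6.78 to 7.08 in CCM (median 6.83) and 5.55 to 6.39 in AIM (median 5.77), with a difference of -1.04 (SE 0.15, limma adjusted p = 8.3e-07). PCNA, the clamp itself, was 9.66 to 10.05 in CCM (median 9.92) and 8.81 to 9.50 in AIM (median 9.06), a difference of -0.78. All 5 RFC subunits were lower, RFC1 least at -0.40. RPA2, the middle subunit of RPA, was 6.62 to 7.05 in CCM (median 6.86) and 5.73 to 6.66 in AIM (median 6.30), and 1 or more AIM arrays reached into the CCM range. Its difference of -0.59 (SE 0.16, limma adjusted p = 2.4e-03) no longer passed without AS FS replicate 1, DL FP replicate 1, AS FP replicate 2 or AS FS replicate 2 (adjusted p 0.013 to 0.024), nor after quantile normalization (0.013) or with all 72 arrays (0.084). RPA1 differed by -0.48, and RPA3, the smallest subunit, did not pass at -0.19 (SE 0.11).

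LIG1, the ligase that joins Okazaki fragments, was 5.75 to 6.21 in CCM (median 6.12) and 5.08 to 5.78 in AIM (median 5.37), a difference of -0.64 (SE 0.11, limma adjusted p = 1.2e-05), with overlap at the edge. RRM2 was 7.94 to 8.79 in CCM (median 8.65) and 6.44 to 7.88 in AIM (median 7.37). The media did not overlap, and the difference was -1.36 (SE 0.22, limma adjusted p = 5.3e-06), or 2.58-fold lower. RRM1, the large subunit of the reductase, differed by -0.63 and TYMS, thymidylate synthase, by -0.60.

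**Figure D2:**
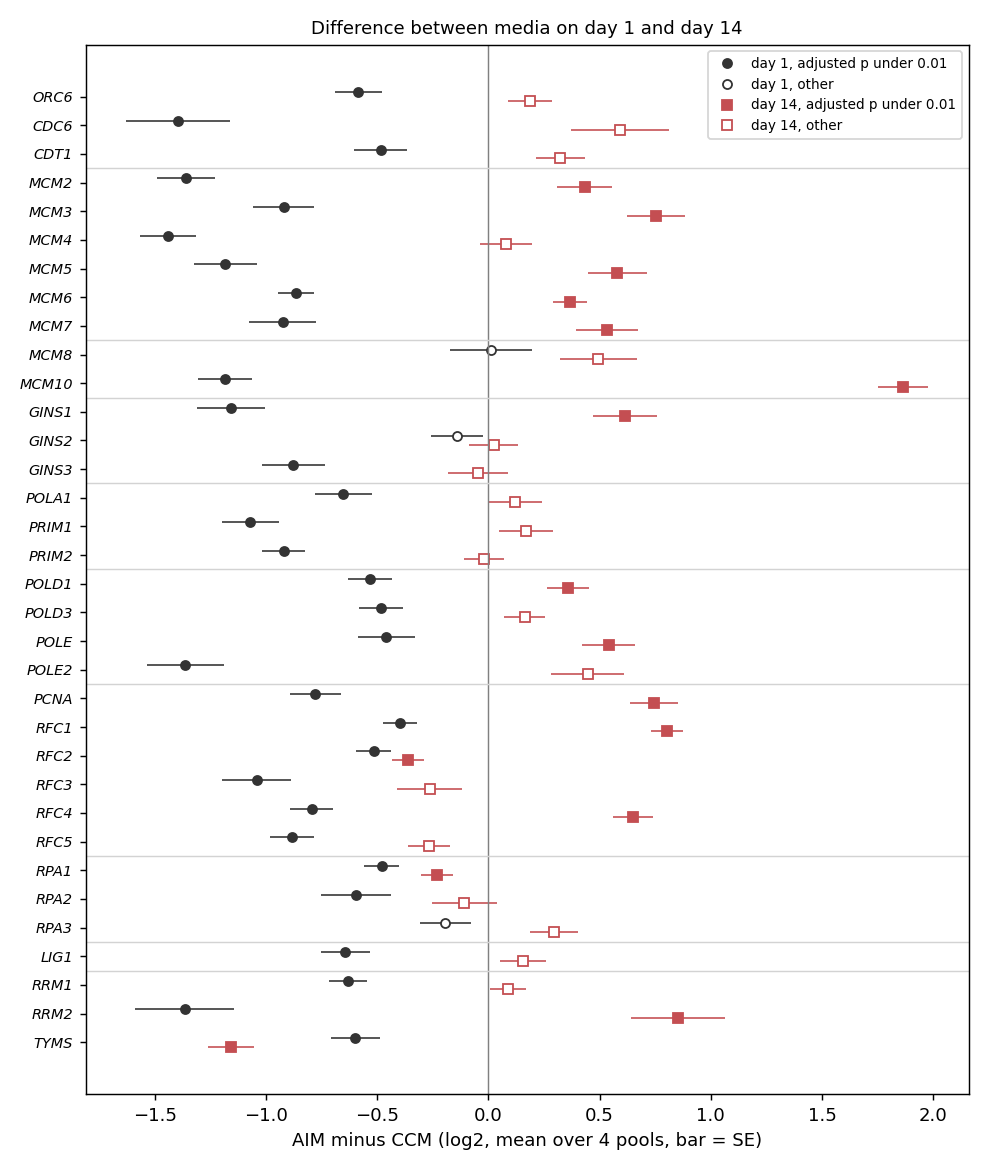
AIM minus CCM in log2 for the 34 tested genes on day 1 (black circles) and day 14 (red squares), with bars of 1 SE and filled symbols where the limma adjusted p was under 0.01. The day 1 symbols lie left of 0 except for MCM8 at 0.01, and many day 14 symbols lie right of it, MCM10 farthest at 1.86 and TYMS on the other side at -1.16.

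By day 4 the genes had fallen in both media. In CCM 31 of the 34 were lower on day 4 than on day 1 (19.2% of all tested probe sets), with a median of -1.29. In AIM 27 were lower (28.4%), with a median of -0.71, and all 27 also fell in CCM. RRM2 had the largest decrease in each, by 3.83 in CCM and 3.03 in AIM. It fell from 7.94 to 8.79 on day 1 to 4.00 to 5.57 on day 4 in CCM, and from 6.44 to 7.88 to 3.50 to 4.63 in AIM. RFC1 rose over this interval in AIM, by 0.70.

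After day 4 the levels in CCM did not move detectably. None of the 34 genes passed between days 4 and 7, where 0.191% of all tested probe sets passed, or between days 7 and 14, where 1.75% did (limma). At an unadjusted p under 0.05 there were 6 genes (9.17% of all tested probe sets) in the first interval and 3 (18%) in the second. In AIM, RRM2 rose by 1.03 and TYMS fell by 0.65 from day 4 to day 7, when 5.7% of all tested probe sets changed. The rise of RRM2 was past the threshold in the 68 arrays but not without AS FS replicate 1, DL FP replicate 1, DL FS replicate 1, AS FS replicate 2 or DL FP replicate 2 (adjusted p 0.010 to 0.017). From day 7 to day 14 in AIM, 5 genes rose, MCM10 by 0.76, PRIM2 by 0.50, PCNA by 0.44, MCM6 by 0.34 and RFC2 by 0.30, and none fell, while 4.18% of all tested probe sets rose. That count was 1 to 4 with a culture line left out, with DL FS replicate 2 giving the count of 1, DL FP replicate 1, DL FP replicate 2, AS FP replicate 1, AS FP replicate 2 and AS FS replicate 2 giving 2, and AS FS replicate 1 giving 3. Against day 0, 19 genes were lower in CCM on day 14 (17% of all tested probe sets) and 15 in AIM (30.5%), 12 of them in both, and MCM10, RFC1 and RPA3 were higher in AIM.

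**Figure D3:**
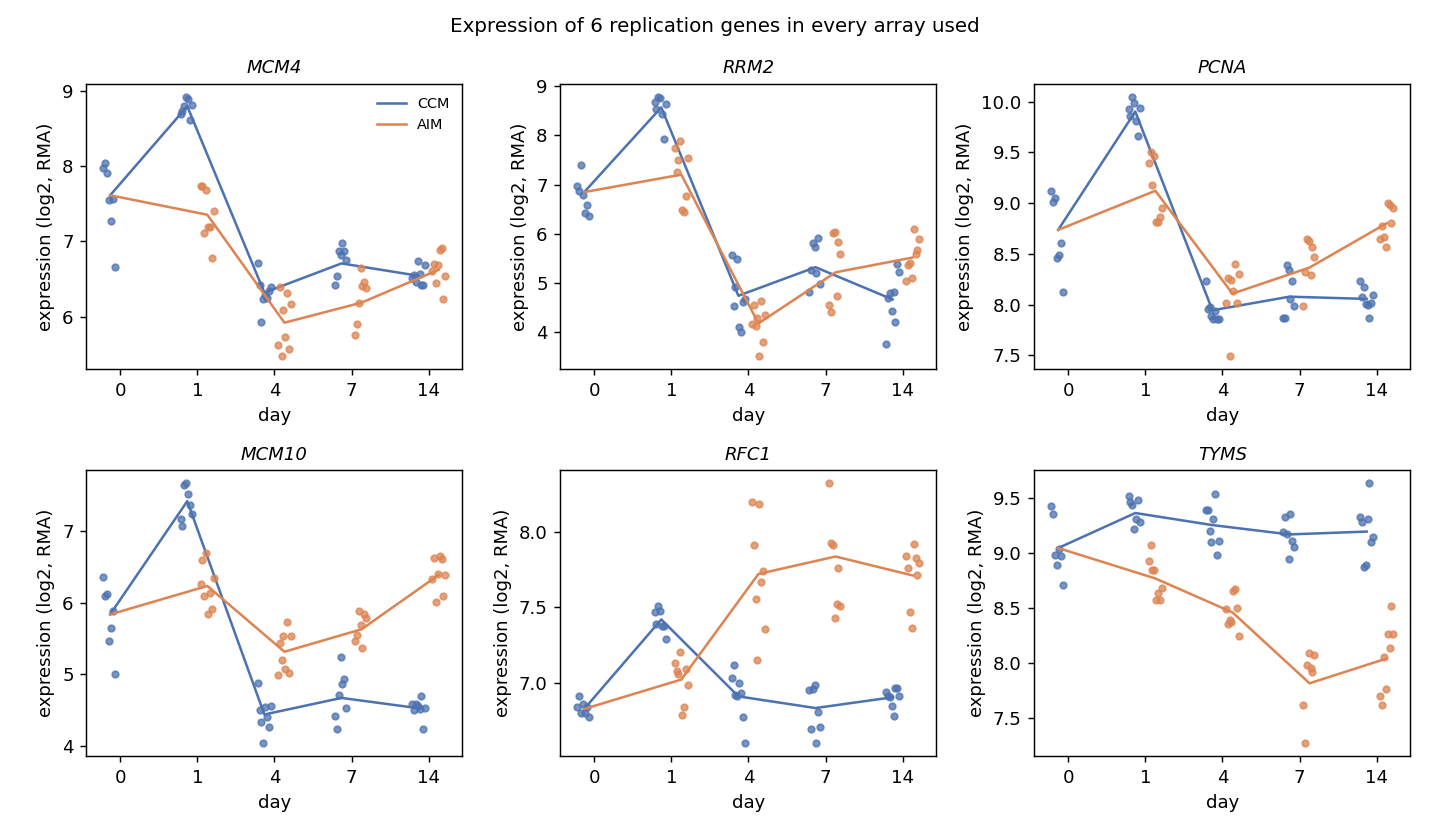
Log2 expression of MCM4, RRM2, PCNA, MCM10, RFC1 and TYMS in each of the 68 arrays used (points) by day, with lines through the means over the 4 pools; blue is CCM and orange AIM, both starting from the day 0 cultures in CCM. The CCM points of day 1 stand above all AIM points of that day in each panel, and from day 4 the AIM points of MCM10 and RFC1 lie above those in CCM and those of TYMS below.

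On days 4 and 7 few genes differed between media. On day 4, 4 of the 34 genes were higher in AIM (19.6% of all tested probe sets) and 8 lower (29.5%), with a median of -0.05. On day 7, 3 were higher (17.7%) and 5 lower (27.4%), with a median of -0.01. MCM10 and RFC1 were higher on both days, RPA3 by 0.50 and 0.76, and MCM7 by 0.54 on day 4. MCM7 was 6.28 to 6.91 in CCM (median 6.62) and 6.80 to 7.44 in AIM (median 7.09) on day 4, and its difference did not pass without AS FS replicate 1, DL FP replicate 1 or AS FP replicate 2 (adjusted p 0.011 to 0.013). The other tested MCM7 probe sets differed less on day 4, by 0.31, 0.27 and 0.14, and only the first passed (limma adjusted p = 3.4e-03, 0.13 and 0.35). RPA3 on day 7 was 5.41 to 6.01 in CCM (median 5.80) and 6.09 to 6.71 in AIM (median 6.47), without overlap. Lower on both days were MCM4 by 0.40 and 0.52, PRIM2 by 0.78 and 0.57, RFC2, RFC5 and TYMS, and RFC3, RPA2 and RRM1 passed on day 4, by 0.73, 0.62 and 0.26. On day 7 these 3 stood at -0.25, -0.46 and -0.16, short of the threshold, and their change from day 4 to day 7 did not pass (limma adjusted p = 0.26, 0.82 and 0.8). With arrays centred on their medians the counts were 6 higher and 5 lower on day 4, and 6 higher and 4 lower on day 7. After quantile normalization they were 6 and 6 on day 4 and 5 and 5 on day 7, and either scaling turned the median of the set above 0 (0.05 and 0.02 on day 4, 0.07 and 0.06 on day 7).

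On day 14 the difference had turned for part of the set. Of the 34 genes, 13 were higher in AIM (20.9% of all tested probe sets) and 3 lower (27.7%), with a median of 0.31 against -0.01 over all tested probe sets. Each of the 13 had been lower in AIM on day 1, and 12 of them were higher in all 4 pools. Every AIM array lay above every CCM array in 4 genes, MCM10, PCNA, RFC1 and RFC4, and in 10.3% of all tested probe sets. With a culture line left out, 12 to 14 genes were higher. After centring 18 were higher and 2 lower, and after quantile normalization 16 and 3. Of the dividing cell markers 4 of 7 were higher in AIM on day 14, with array means of 4.88 to 5.40 in CCM and 5.47 to 6.01 in AIM. Fat cell markers had means of 6.21 to 8.44 in CCM and 10.39 to 11.00 in AIM. Stromal markers had means of 10.18 to 10.56 in CCM and 9.57 to 10.05 in AIM, with 2 of 6 lower, and cartilage markers 6.79 to 7.32 and 5.85 to 6.76, with 2 of 3 lower. The part of any of these in the result was not tested.

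MCM10 differed most. It was 4.23 to 4.70 in CCM (median 4.55) and 6.01 to 6.66 in AIM (median 6.39) on day 14, a difference of 1.86 (SE 0.11, limma adjusted p = 8.4e-17), or 3.64-fold higher. On days 4 and 7 it had been higher by 0.88 and 0.96, also without overlap between arrays. In AIM it stood 0.56 above day 0 on day 14, and in CCM 1.31 below. A second probe set that the study's annotation assigns to MCM10 gave -0.85 on day 1 and 0.72 on day 4 and was higher in AIM on day 14 too (limma adjusted p = 3.9e-11).

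Of the MCM2 to MCM7 ring, 5 subunits were higher in AIM on day 14 and MCM4 did not pass, at 0.08 (SE 0.12). MCM3 was 4.26 to 4.87 in CCM (median 4.55) and 4.80 to 5.60 in AIM (median 5.38), a difference of 0.75 (SE 0.13, limma adjusted p = 4.0e-06). MCM5 was 4.35 to 5.19 (median 4.76) and 4.97 to 5.85 (median 5.31), a difference of 0.58. In both genes the arrays of the media overlapped. The other tested MCM5 probe sets differed by 0.62, which passed, and 0.26, which did not (limma adjusted p = 4.7e-05 and 0.29).

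MCM7 was 6.49 to 7.19 in CCM (median 6.85) and 6.92 to 7.64 in AIM (median 7.43), a difference of 0.53 that missed the threshold without AS FS replicate 1 (limma adjusted p = 0.011). MCM6 was 7.42 to 7.68 (median 7.49) and 7.62 to 8.16 (median 7.84), a difference of 0.37. MCM2 was 4.33 to 4.86 (median 4.49) and 4.54 to 5.32 (median 5.04), a difference of 0.43. The call of MCM2 was lost without DL FP replicate 1, DL FS replicate 1, AS FS replicate 2 or DL FS replicate 2 (adjusted p 0.013 to 0.032).

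GINS1 was 4.14 to 4.70 in CCM (median 4.45) and 4.68 to 5.27 in AIM (median 5.06) on day 14, a difference of 0.61 (SE 0.14). POLE, the catalytic subunit of polymerase epsilon, was 3.55 to 4.04 in CCM (median 3.92) and 4.02 to 4.79 in AIM (median 4.41), a difference of 0.54 (SE 0.12). Its CCM values lay near or below the array medians of 3.95 to 4.12. A second tested POLE probe set differed by 0.20 and did not pass (limma adjusted p = 0.2). POLD1, the catalytic subunit of polymerase delta, was 4.56 to 5.28 (median 4.84) and 4.96 to 5.50 (median 5.27), a difference of 0.36. The POLD1 call was lost without AS FP replicate 1 or DL FP replicate 2 (limma adjusted p 0.012 to 0.016).

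RRM2 was 3.76 to 5.38 in CCM (median 4.75) and 5.04 to 6.09 in AIM (median 5.50) on day 14, a difference of 0.85 (SE 0.21, limma adjusted p = 6.8e-04). It was higher in AIM in all 4 pools, but without AS FS replicate 2 the value was 0.76 and the adjusted p 0.013. In both media RRM2 stayed below day 0, by 1.33 in AIM and 2.18 in CCM. Its other tested probe sets did not pass on day 14, at 0.42 and -0.21, the second of which also did not move on day 1 (-0.04).

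PCNA and its loader split on day 14. PCNA was 7.87 to 8.23 in CCM (median 8.04) and 8.57 to 9.00 in AIM (median 8.79), a difference of 0.74 (SE 0.11, limma adjusted p = 2.0e-07). The study's annotation gives this probe set a locus identifier in place of the PCNA symbol, and a second tested PCNA probe set differed by 0.81. The mean over all PCNA probe sets differed by 0.39 (adjusted p = 0.025). RFC4 was 5.99 to 6.51 in CCM (median 6.28) and 6.56 to 7.10 in AIM (median 6.95), a difference of 0.65 (SE 0.09, limma adjusted p = 9.4e-08). Both had AIM arrays entirely above those in CCM.

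RFC1, the large subunit that carries the DNA-binding part of the loader, was the 1 gene to rise in AIM from day 1 to day 4. RFC1 was 7.29 to 7.51 in CCM (median 7.39) and 6.79 to 7.21 in AIM (median 7.07) on day 1, but 6.61 to 7.12 (median 6.93) and 7.15 to 8.19 (median 7.71) on day 4. On day 14 it was 6.79 to 6.97 in CCM (median 6.92) and 7.37 to 7.92 in AIM (median 7.77). Arrays of the media did not overlap, and the side on which AIM lay changed between days 1 and 4. The differences on days 4, 7 and 14 were 0.81, 1.00 and 0.80 (limma adjusted p at most 3.9e-12), and a second RFC1 probe set gave 0.67, 0.82 and 0.63.

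RFC2, a small subunit, was lower in AIM on all 4 days, by 0.52, 0.77, 0.60 and 0.36. On day 4 it was 7.95 to 8.23 in CCM (median 8.12) and 7.12 to 7.59 in AIM (median 7.32), without overlap. RFC5 was lower on days 1, 4 and 7 and RFC3 on days 1 and 4. On day 14 they stood at -0.27 and -0.26, short of the threshold (limma adjusted p = 0.016 and 0.12). Thus the 5 subunits of 1 complex held differences from -0.77 to 0.81 on day 4.

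**Figure D4:**
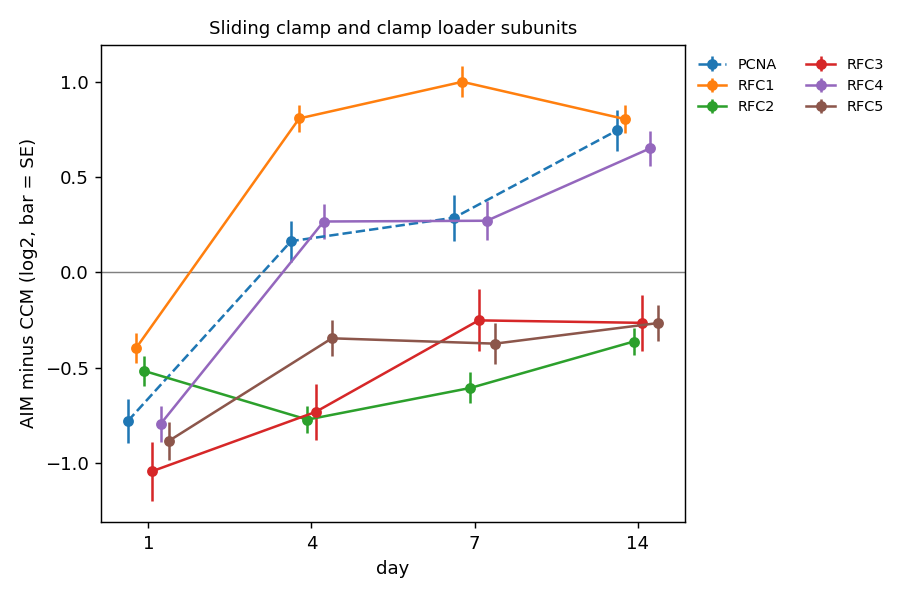
AIM minus CCM in log2 (bars of 1 SE) for the clamp PCNA (dashed) and the 5 clamp loader subunits on days 1, 4, 7 and 14. All 6 lie below 0 on day 1, after which RFC1, RFC4 and PCNA lie above 0 and RFC2, RFC3 and RFC5 below.

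TYMS, the enzyme that makes thymidylate, was with RFC2 the only tested gene to pass the threshold as lower in AIM on all 4 days. Others, such as RFC5, had negative differences on all 4 days without passing on each. Unlike most of the set, TYMS kept its level in CCM. In CCM it was 9.21 to 9.51 (median 9.43) on day 1 and 8.87 to 9.63 (median 9.21) on day 14. In AIM it went from 8.57 to 9.07 (median 8.76) on day 1 to 7.27 to 8.09 (median 7.95) on day 7 and 7.62 to 8.51 (median 8.09) on day 14. No AIM array reached the CCM arrays on any of the 4 days.

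The differences of TYMS were -0.60, -0.79, -1.36 and -1.16 on days 1, 4, 7 and 14 (limma adjusted p at most 3.9e-05), and a second TYMS probe set gave -0.53, -0.71, -1.42 and -1.29. RRM1 passed on days 1 and 4, at -0.63 and -0.26, and stood at -0.16 on day 7 and 0.09 on day 14. RPA1 was the third gene lower in AIM on day 14, at 7.72 to 7.88 in CCM (median 7.80) and 7.40 to 7.83 in AIM (median 7.52). Its difference of -0.23 (limma adjusted p = 6.2e-03) did not pass without AS FP replicate 1, AS FS replicate 1, DL FP replicate 1, DL FS replicate 1, AS FP replicate 2 or DL FP replicate 2 (0.015 to 0.053), nor after centring (0.050).

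The change of the difference between media was itself tested. From day 1 to day 4 AIM minus CCM increased in 23 of the 34 genes and decreased in none, against an increase in 13.3% of all tested probe sets. From day 1 to day 14 it increased in 27 (15.5%) and decreased in TYMS, by 0.56 (SE 0.15, limma adjusted p = 2.9e-03). The largest changes were 3.05 (SE 0.17) for MCM10, 2.22 (SE 0.31) for RRM2 and 1.99 (SE 0.32) for CDC6. The levels of CDC6 outside CCM day 1 were near the floor. From day 7 to day 14 only MCM10 changed, by 0.90, and 2.33% of all tested probe sets did.

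Few genes differed between breeds. Over the 9 comparisons of AS with DL, 3 gene results passed in AIM, and 3.1% of all results in those comparisons did. RRM2 in AIM on day 7 was 4.41, 4.54 and 4.74 in the 3 AS arrays and 5.59, 5.83, 6.02 and 6.04 in the 4 DL arrays, a difference of -1.32 (SE 0.34, limma adjusted p = 5.4e-03). PRIM2 on that day was 5.46, 5.64 and 5.74 in AS and 6.03, 6.11, 6.16 and 6.18 in DL, a difference of -0.55 (SE 0.14, adjusted p = 6.8e-03). In both genes all AS arrays were below all DL arrays, and on that day 8.84% of all tested probe sets passed between breeds.

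RFC1 in AIM on day 4 was 7.67, 7.91, 8.18 and 8.19 in AS and 7.15, 7.36, 7.56 and 7.74 in DL, which overlapped. The difference was 0.53 (SE 0.10, limma adjusted p = 5.7e-04), and 4.75% of all tested probe sets passed. Each of the 3 calls was lost without some of the lines. RRM2 lost its call without 6 of the 8 culture lines (adjusted p 0.014 to 0.042), all but AS FP replicate 2 and DL FS replicate 2. PRIM2 lost it without AS FP replicate 1, DL FP replicate 1, DL FS replicate 1, DL FP replicate 2 or DL FS replicate 2 (0.018 to 0.13), and RFC1 without AS FS replicate 1 or DL FP replicate 1 (0.016 to 0.018). With a fixed replicate block PRIM2 did not pass either (adjusted p = 0.015). With all 72 arrays as labelled PRIM2 differed by -0.29, and the mean over all RRM2 probe sets differed by -0.49, neither past the threshold.

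No gene passed in any of the 9 comparisons of FP with FS, in which 0.411% of all results passed. The closest were in AIM on day 4, where 13 of the 34 had an unadjusted p under 0.05, 11 of them lower in FP, with MCM3 lowest at -0.70 and a smallest adjusted p of 0.029 (limma), while 12.4% of all tested probe sets had such a p. The difference between AIM and CCM did not pass between breeds in any gene on any day, where 0.397% of all results passed and 1, 5, 2 and 2 of the 34 genes had an unadjusted p under 0.05 on days 1, 4, 7 and 14 (4.05%, 10.5%, 13.8% and 11.1% of all tested probe sets). Between tissues it did not pass either, with 0.0382% of all results passing and 2, 9, 1 and 0 genes below an unadjusted 0.05 (2.7%, 7.51%, 6.76% and 10% of all tested probe sets). The 9 genes of day 4 were thus a larger share of the 34 than over all probe sets, though none passed the adjusted threshold.

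Other genes of the same processes were counted from lists. Of 15 tested replication factors outside the set, 10 were lower (17.6% of all tested probe sets) and 1 higher (10.4%) in AIM on day 1. DNA2, a nuclease and helicase, was 6.81 to 7.26 in CCM (median 6.90) and 5.01 to 5.99 in AIM (median 5.45), a difference of -1.49, and DSCC1, of an alternative clamp loader, differed by -1.27. On day 14, 3 were higher (20.9% of all tested probe sets) and 2 lower (27.7%), neither above those shares. WDHD1, which in yeast and human cells ties polymerase alpha to the helicase, stood at -2.12 and the topoisomerase TOP1 at 0.84. WDHD1 was 6.43 to 7.39 in CCM (median 7.03) and 4.26 to 5.70 in AIM (median 4.94).

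Of 19 other nucleotide synthesis genes, 6 were lower (17.6% of all tested probe sets) and none higher (10.4%) on day 1. The deoxycytidine kinase DCK stood at -1.12 and GMPS, of guanine nucleotide synthesis, at -0.72. On day 14, 9 were higher (20.9% of all tested probe sets) and 4 lower (27.7%), the latter below that share. PPAT, the committed enzyme of purine synthesis, was 3.64 to 4.89 in CCM (median 4.20) and 6.36 to 7.17 in AIM (median 6.87), a difference of 2.50, and SAMHD1, which breaks down deoxynucleotides, differed by -1.41. Of 6 genes of chromatin assembly and DNA methylation in S phase, 4 were lower on day 1 (17.6%), with the remodeller HELLS at -1.13. On day 14, 4 were higher (20.9%), with the histone chaperones ASF1B at 1.39 and NASP at 1.07.

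Of 14 E2F and RB regulators, 8 were lower (17.6% of all tested probe sets) and 2 higher (10.4%) in AIM on day 1. On day 14, 2 were lower (27.7%) and 6 higher (20.9%). Cyclin E2 (CCNE2), which drives entry into S phase, was 7.11 to 7.33 in CCM and 5.82 to 6.69 in AIM on day 1, and 4.22 to 5.11 and 5.34 to 6.33 on day 14. Its differences were -1.03 and 0.93. The repressor E2F7 differed by -0.77 on day 1 and the cyclin-dependent kinase inhibitor CDKN1A by -0.71 on day 14.

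Of the members, 5 were measured but not tested, because their probe sets varied little or were dim. FEN1, which trims Okazaki fragments, was 6.78 to 7.84 over all 68 arrays, POLD2 4.98 to 6.37 and TK1, thymidine kinase, 5.41 to 6.46. The probe set of DUT, the dUTPase, was 1.78 to 2.69 and never above the median of its array. CDC45 had 10 probe sets. The one with the highest mean ran from 5.60 to 6.77, whereas 4 of 7 tested others were lower in AIM on day 1, with differences from -0.77 to -1.60 (limma adjusted p at most 1.5e-05). A probe set that only the study's annotation names ORC1 was 6.96 to 7.43 in CCM (median 7.08) and 5.50 to 6.45 in AIM (median 5.84) on day 1, a difference of -1.29 (SE 0.13). On day 14 its difference of 0.26 did not pass.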

How the data were processed

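The 72 arrays were scanned with GCOS 1.1.1, per the labels. The authors corrected background, normalized and summarised the probes by robust multiarray averaging and deposited 1 log2 value per probe set and array. Gene symbols were those of the platform table. The members and lists were chosen with earlier results of these data known. Tested probe sets had an SD above 0.25 and exceeded their array's median on 8 arrays or more; 123 control probe sets were left out.

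In R 4.3.3, limma 3.58.1 fitted 36 group means over 68 arrays, treating the 8 culture lines as a random effect (statmod 1.5.0, correlation 0.026). Contrasts weighed the 4 pools equally, and p-values were adjusted by Benjamini-Hochberg within each comparison (threshold 0.01). This departs from the study's row-by-row mixed model. The fit was checked on simulated data. Genes were named by their probe set with the highest mean. Per-array values are given for the member of each role with the largest passing difference on day 1, for members that passed in opposite directions, between breeds or against the others, and for pathway genes with the 2 largest passing differences of each list on days 1 and 14. Alternatives changed the block, arrays, scaling, filter, variance trend and choice of probe set, and left out each culture line. Sequences were not used here.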

Additional observations from a re-analysis of the deposited data

Results flagged for a closer look

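The difference between AIM and CCM changed between days in 23 of 34 tested genes from day 1 to day 4, in 28 from day 1 to day 14 and in 1 from day 7 to day 14 (limma, adjusted p under 0.01). From day 1 to day 14 the change was 3.05 for MCM10, 2.22 for RRM2, 1.99 for CDC6, 1.20 for RFC1 and -0.56 for TYMS.

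Single arrays stood apart in 4 of 126 gene and state profiles examined over 14 genes, and chance alone sets 1 in 20 apart. CDC6 was 1.82 in DL FP CCM day 14 replicate 1, where the next array was 2.70. MCM10 was 4.23 in DL FP CCM day 14 replicate 2, with the next at 4.50. RRM2 was 7.94 in AS FS CCM day 1 replicate 2, with the next at 8.44. GINS1 was 4.00 in DL FS day 0 replicate 2, where the next array was 5.30, and 27 of the 39 genes had their lowest day 0 value in that array. The replicate 2 arrays of AS FP and AS FS held 5 and 3 of these lowest values, and each replicate 1 array 0 or 2. MCM4 on day 0 was 7.98 and 7.27 in replicates 1 and 2 of AS FP, and 8.04 and 7.57 in AS FS. The day 0 level thus differed between replicate numbers, which bears on the comparisons with day 0. With any 1 of the 8 culture lines left out, 29 to 31 genes rose from day 0 to day 1 in CCM.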

How the results depend on the processing

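Under 18 alternative settings, 210 recomputed counts stayed within 1.5 times the value given and 24 did not. Of 48 results of named genes none changed sign, but 17 missed the threshold under 1 or more settings, 62 times in all. With all 72 arrays as labelled, 5 genes were lower in AIM on day 4 and 2 on day 7, 1 rose in AIM from day 0 to day 1 and 1 from day 7 to day 14. The count lower on day 1 was then 27 and the count higher on day 14 was 10. After centring, 5 were lower on day 4, 6 higher on day 7, and 8 rose in AIM to day 1. After quantile normalization, 5 were higher on day 7, 10 rose in AIM to day 1 and 3 from day 7 to day 14. With no filter these last counts were 1 and 3. Leaving out a culture line gave 1 to 7 for AIM day 1 against day 0 and 1 to 4 for AIM day 14 against day 7. The scaling moved the median of all probe sets by at most 0.10.

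With a fixed replicate block in place of the random one, the counts lower on day 1 and higher on day 14 were 31 and 13, and without a replicate block also 31 and 13. In the AIM against CCM comparisons with a fixed replicate block, only the count lower on day 4 moved, from 8 to 9. PRIM2 between breeds no longer passed. Deviations of same-numbered AIM and CCM cultures correlated at 0.00 to 0.25 over 14 pairs (across probe sets), above 0.1 in 7. The numbers therefore give little sign of pairing of media within a pool, although the random block links cultures of the same pool and number in the values given. Some shifts between replicate numbers were shared by the 4 pools and changed with the state. In AIM on day 1, PCNA was 9.18 to 9.50 in the replicate 1 arrays and 8.81 to 8.95 in replicate 2. In AIM on day 14, TYMS was 7.62 to 8.05 in replicate 1 and 8.14 to 8.51 in replicate 2. The blocks used do not model such a shift, so SEs and p-values may be too small. An alternative added after seeing the data, the brightest probe set among those that passed the filter, gave 32 lower on day 1 and 13 higher on day 14 of 35 genes. Day 7 has least precision, with 7 arrays per medium. Array values carry no counts, and the number of arrays limits the precision.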
